A study of Mus musculus with 6 samples.

Results

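Nppc, Npr2, Npr3, Gja1, Gja4, Pde3a and Gpr3 are the genes of the natriuretic peptide and gap-junction system that holds the oocyte in meiotic arrest. They were taken by name from the array annotation, as every probe set annotated with exactly 1 gene symbol that is one of these names. This gave 7 of 18193 genes, with 16 of the 45037 probe sets that are not array controls. A gene with several probe sets is represented by its brightest one, judged by the mean over the 6 arrays. RNA came from whole ovaries of 8-month-old female mice, with both ovaries pooled. The FORKO mice lacked all variants of the receptor for follicle-stimulating hormone (FSH). The wild-type (WT) mice, like the FORKO mice, came from heterozygous parents of the 129T2 svEmsJ background. Each of 3 FORKO and 3 WT samples was measured on its own Affymetrix Mouse Genome 430 2.0 array. The receptor is missing in every tissue and from conception, so the ovary of a FORKO mouse has developed without it.

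In the mouse follicle, granulosa cells secrete C-type natriuretic peptide, the product of Nppc, which activates the guanylyl cyclase receptor NPR2 on granulosa and cumulus cells. The cyclic GMP (cGMP) made there passes through gap junctions, built of connexin 43 (Gja1) between granulosa cells and of connexin 37 (Gja4) at the oocyte, and blocks the phosphodiesterase PDE3A in the oocyte. Cyclic AMP (cAMP), made there under the constitutively active receptor GPR3, then stays high and meiosis is halted until luteinizing hormone (LH) closes this path. NPR3 binds the same peptide without a cyclase domain and clears it. In mice, priming with a gonadotropin that acts on the FSH receptor is known to raise Nppc transcript.

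Promoter sequence is shown for the ligand Nppc and for Gja1, the members at the start and the middle of this path, so that the letters before each start site can be read beside the values. The RefSeq promoter table of build GRCm38.p6 held 6 of the 7 members. Each sequence gives the 250 bases before the annotated start on the gene's own strand, for Nppc chr1:86670574-86670823 on the minus strand and for Gja1 chr10:56377050-56377299 on the plus strand. Capitals mark matches, on either strand, to the cAMP response element core TGACG, the AP-1 site TGANTCA, the TATA box TATAAA or the GC box GGGCGG.
Nppc: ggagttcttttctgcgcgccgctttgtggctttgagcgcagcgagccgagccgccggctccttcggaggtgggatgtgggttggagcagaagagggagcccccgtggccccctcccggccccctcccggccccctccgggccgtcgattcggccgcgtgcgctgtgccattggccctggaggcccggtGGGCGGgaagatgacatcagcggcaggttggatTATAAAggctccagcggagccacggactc
Gja1: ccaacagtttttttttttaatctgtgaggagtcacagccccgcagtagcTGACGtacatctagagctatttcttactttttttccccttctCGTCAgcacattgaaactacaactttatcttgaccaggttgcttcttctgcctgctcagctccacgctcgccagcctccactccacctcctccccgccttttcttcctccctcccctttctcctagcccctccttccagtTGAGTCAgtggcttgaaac
The Nppc window held a TATA box at -29 to -24 and a GC box at -62 to -57, counting the base before the start as -1. A TATA box stood in 12.4% and a GC box in 32.7% of all 32851 promoter windows of this length. The Gja1 window held the TGACG core at -201 to -197 and, on the other strand, at -159 to -155, and an AP-1 site at -19 to -13. TGACG was present in 17.8% and TGANTCA in 6.75% of all windows. The full element TGACGTCA, which contains the core and stood in 1.55% of all windows, was in neither sequence. These matches are letters in a window, not measured sites of binding.

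The deposited signals were scaled to 1 trimmed mean per array, and a change is the FORKO mean less the WT mean of log2(signal + 5.73), where a signal is the array's brightness reading for a probe set. Probe sets whose mean scaled signal reached 20.4 were tested. One array stood apart: across tested probe sets FORKO replicate 1 correlated at 0.934 and 0.936 with the other FORKO arrays, which correlated at 0.976 with each other. WT arrays correlated at 0.966 to 0.969. The deleted gene Fshr read 1.20, 11.2 and 11.7 in FORKO ovaries, against 99.6, 59.4 and 119 in WT ovaries (log2 change -2.90 ± 0.39, SE; limma adjusted p = 0.0102). Leaving out WT replicate 1 gave Fshr an adjusted p of 0.0526, and leaving out WT replicate 3 gave 0.0598. The titles and the genotype field gave the groups, while the free-text description and the treatment field of the FORKO samples speak of wild-type mice. Of the ovary's defining markers, the granulosa factor Foxl2 read 819 to 872 in FORKO and 626 to 810 in WT ovaries, whereas Amh read 0.912 to 1.06 in FORKO and 0.830 to 1.16 in WT ovaries, near 0 on every array.

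Of the 7 members, 5 were bright enough to test and 0 passed in limma with p adjusted over all 22506 probe sets at 0.05, where 1.65% of probe sets and 2.14% of genes passed and 0.595% of probe sets were lower. At an unadjusted p under 0.05 there were 3 of the 5, Nppc, Npr3 and Gja4, each lower in FORKO, against 14.6% of probe sets and 16.8% of genes in either direction and 6.93% of probe sets lower. For 2 of the 5, Nppc and Gja4, the highest FORKO reading was under the lowest WT reading, as it was for 10.4% of probe sets and 12.0% of genes. These counts are a description of the 5 and no more, because Nppc reached the filter through the WT arrays alone, its FORKO readings all being under it. FORKO replicate 1 gave the lowest of the 6 signals for 5 of 5 tested members and for 25.9% of 11199 genes tested. With these 3 arrays in each group the exact two-sided permutation p cannot go below 0.1, and arrays give no counts, so the number of arrays limits the precision.

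**Figure D1:**
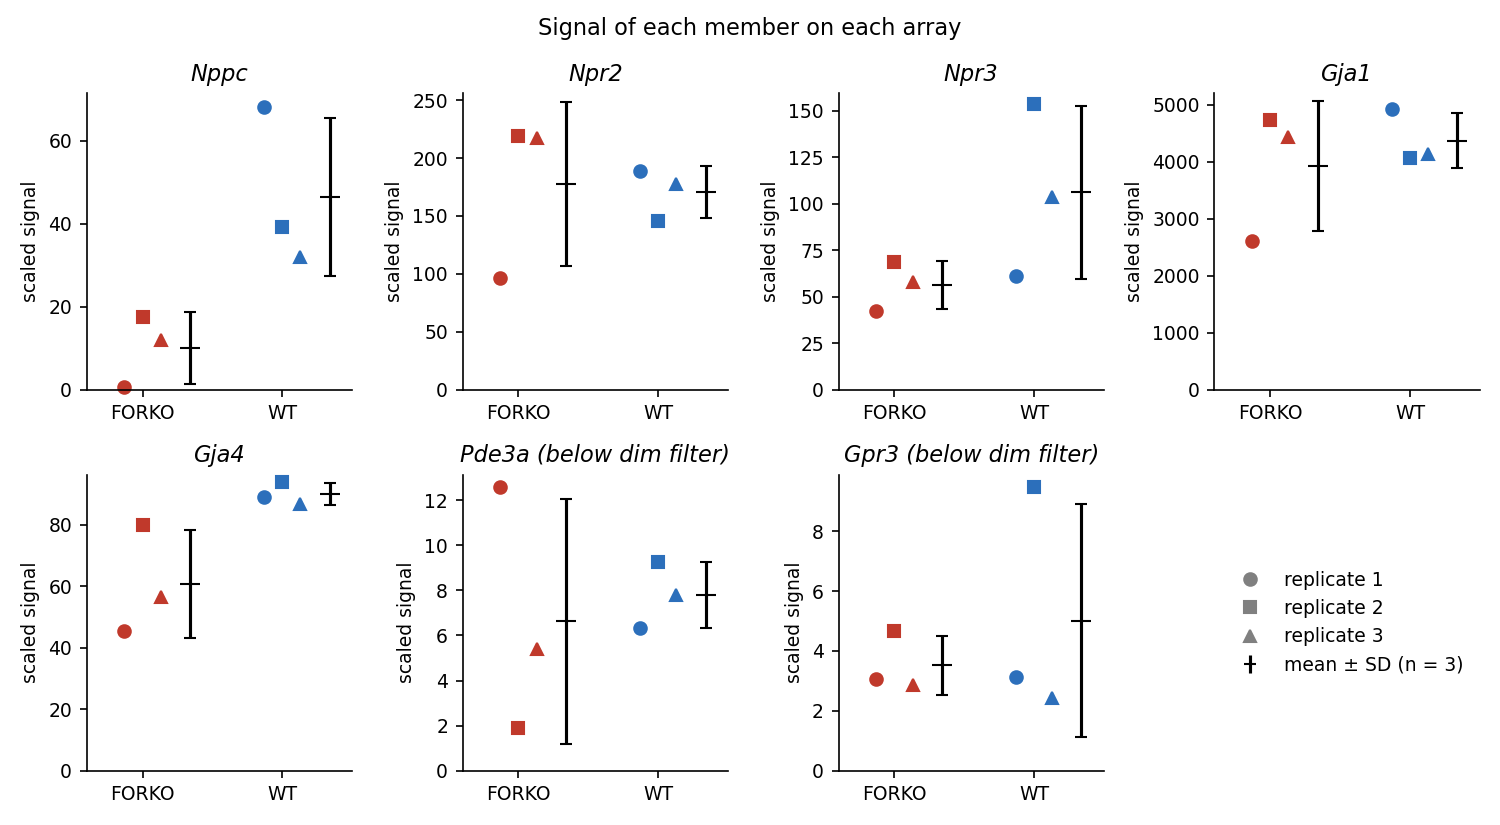
Scaled signal (y axis, linear, a separate scale per gene) of the probe set standing for each member in 3 FORKO (red) and 3 WT (blue) samples, with symbols for replicates 1 to 3 and black bars for mean ± SD (n = 3). Nppc and Gja4 lie lower on every FORKO array than on any WT array, and Pde3a and Gpr3 stay below the filter on dim probe sets.

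The ligand gene Nppc had the largest difference of the members. Its signal was 0.656, 17.5 and 12.0 on FORKO arrays 1, 2 and 3, against 68.1, 39.4 and 32.0 on WT arrays 1, 2 and 3. Every FORKO array was thus below every WT array, and all 3 FORKO readings were under the filter level of 20.4. The means were 10.1 ± 8.60 in FORKO and 46.5 ± 19.1 in WT ovaries (SD, n = 3 each). The log2 change was -1.86 ± 0.47 (SE, 95% interval -2.91 to -0.81), which did not pass (limma adjusted p = 0.0944; exact permutation p = 0.1). Without FORKO replicate 1 the change was smaller, -1.30, yet Nppc passed (limma adjusted p = 0.0364), in a fit where 3.84% of all probe sets passed and 1.19% were lower. The adjusted p was 0.0593 to 0.276 when any other array was left out. The size of the change depended on the pseudocount, at -2.62 with a pseudocount of 1 and -1.28 with 16, and it passed with neither (limma adjusted p = 0.163 and 0.0699). No detection calls were used, so whether the FORKO readings were above the array's background was not tested.

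Nppc is made in granulosa cells, whose markers differed between the FORKO samples. The 13 of 14 listed granulosa markers with a probe set summed to 7736, 18324 and 18961 on FORKO arrays 1, 2 and 3, against 14574 to 19216 on WT arrays. FORKO replicate 1 was therefore low and the other FORKO arrays lay within the WT range, with no marker listed at 0 and Amh close to it. Of 12 tested granulosa markers the 1 that fell in limma was Fshr, the deleted gene itself, and 0 rose. Of all genes, 2.14% passed in either direction. The list's median change was -0.74, and 0.36 without FORKO replicate 1. The activin subunit gene Inhba read 54.2, 3867 and 3756 in FORKO and 2046 to 4332 in WT ovaries. The nuclear receptor gene Nr5a2 read 207, 657 and 767 in FORKO and 1636 to 1928 in WT ovaries. Other markers of the list ran the other way, with the AMH receptor gene Amhr2 at 2841, 2128 and 2941 in FORKO and 1550 to 1745 in WT ovaries, and the Kit ligand gene Kitl at 1494, 1052 and 1180 in FORKO and 729 to 804 in WT ovaries. In bulk tissue, fewer cells of a type and less RNA per cell cannot be told apart. A summed signal also weighs the brightest markers most. The Nppc difference from the WT mean was -2.97, -1.11 and -1.49 on FORKO arrays 1, 2 and 3, and the part of granulosa cells in it was not tested.

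The receptor gene Npr2 did not differ detectably. It read 96.1, 219 and 218 on FORKO arrays 1, 2 and 3, against 189, 145 and 178 on WT arrays. FORKO replicate 1 was the lowest of all 6 readings and the other FORKO arrays were the 2 highest. The means were 178 ± 70.5 in FORKO and 171 ± 22.8 in WT ovaries (SD, n = 3 each), and the log2 change was -0.03 with a 95% interval of -0.69 to 0.64 (limma adjusted p = 0.981). Without FORKO replicate 1 the change was 0.35 (adjusted p = 0.400). The interval leaves room for a difference of either sign.

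The clearance receptor gene Npr3 read 42.4, 68.5 and 58.1 on FORKO arrays, against 61.1, 154 and 103 on WT arrays. The groups overlapped, because WT replicate 1 lay below FORKO replicate 2. The means were 56.3 ± 13.1 in FORKO and 106 ± 46.3 in WT ovaries (SD, n = 3 each), with a log2 change of -0.78 (95% interval -1.48 to -0.09; limma adjusted p = 0.278). The change was -0.61 without FORKO replicate 1, -0.48 without WT replicate 2 and -1.11 without WT replicate 1. The 3 Npr3 probe sets disagreed in sign. The next brightest changed by -0.53 (adjusted p = 0.529), and the dimmest, which read 6.12 to 17.3 in FORKO and 7.68 to 9.99 in WT ovaries and was below the filter, by 0.08.

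The connexin 43 gene Gja1 read 2610, 4726 and 4439 on FORKO arrays 1, 2 and 3, against 4922, 4056 and 4132 on WT arrays. FORKO replicate 1 was low and FORKO replicates 2 and 3 lay within the WT range. The means were 3925 ± 1147 in FORKO and 4370 ± 480 in WT ovaries (SD, n = 3 each), with a log2 change of -0.20 (95% interval -0.67 to 0.28; limma adjusted p = 0.739). Without FORKO replicate 1 the change was 0.07 (adjusted p = 0.860). The interval leaves room for a difference of either sign up to these bounds.

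Gja1 had 6 probe sets, all past the filter, of which 5 had a negative change. For 3 of the others, with FORKO means of 2891 to 3940 and WT means of 3300 to 4331, the changes were -0.16, -0.21 and -0.24, with FORKO replicate 1 lowest in each. A dimmer probe set (change -0.38) read 36.4, 135 and 121 in FORKO ovaries, against 117, 101 and 121 in WT ovaries, and again FORKO replicate 1 was the lowest array. The last probe set went the other way, with a change of 0.67 (limma adjusted p = 0.628) and readings of 73.5, 167 and 65.1 in FORKO and 19.3, 82.7 and 104 in WT ovaries. The suffix _x_at marks probe sets whose probes may also match other transcripts, and 4 of the Gja1 probe sets carry it.

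The connexin 37 gene Gja4 read 45.4, 79.9 and 56.6 on FORKO arrays, against 89.0, 93.8 and 86.7 on WT arrays. The groups did not overlap, and FORKO replicate 2 came closest to WT. The means were 60.6 ± 17.6 in FORKO and 89.9 ± 3.60 in WT ovaries (SD, n = 3 each), a ratio of 0.675. The log2 change was -0.56 (95% interval -1.05 to -0.07), which did not pass (limma adjusted p = 0.273), and it ran from -0.76 without FORKO replicate 2 to -0.39 without FORKO replicate 1. Gja4 is known from oocytes and from vascular endothelium. The 13 of 14 oocyte markers with a probe set summed to 424 to 649 in FORKO and 1005 to 1203 in WT ovaries, and the 9 endothelial markers to 1277 to 1739 in FORKO and 863 to 963 in WT ovaries. In limma 2 of 7 tested oocyte markers fell and 1 of 7 tested endothelial markers rose, against 2.14% of all genes in either direction. Neither pair of ranges overlapped, no marker of either list was at exactly 0, and their part in the Gja4 difference was not tested.

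**Figure D2:**
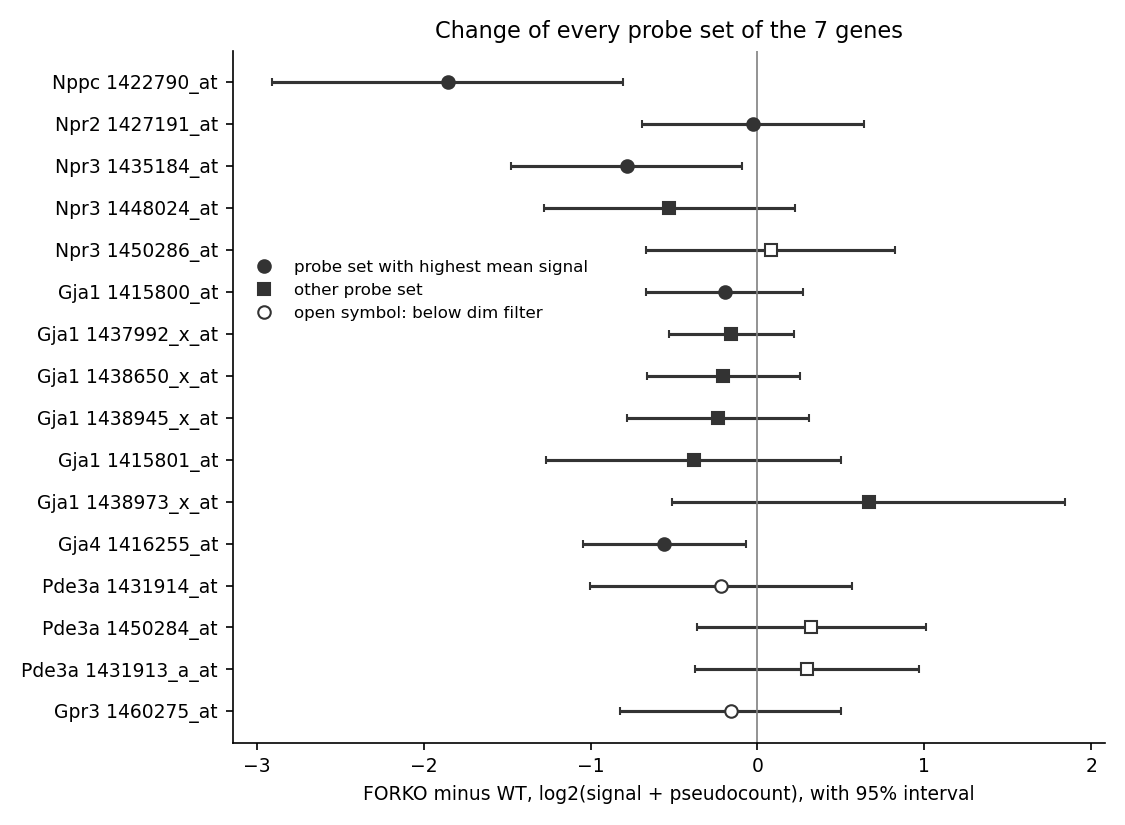
Change in FORKO minus WT ovaries (x axis, log2(signal + 5.73)) with its 95% interval for each of the 16 probe sets of the 7 genes, where circles mark the probe set standing for a gene, squares the others, and open symbols those below the dim filter. Nppc lies farthest from 0 at -1.86, and the Gja1 probe sets run from -0.38 to 0.67.

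The members that act inside the oocyte were too dim to assess. The phosphodiesterase gene Pde3a read 12.6, 1.91 and 5.39 on FORKO arrays and 6.33, 9.27 and 7.79 on WT arrays with its brightest probe set, so the FORKO values spanned the WT values. Its 3 probe sets read at most 12.6 on any array, and their changes were -0.22, 0.32 and 0.30 in the fit without a filter (limma adjusted p = 0.886, 0.780 and 0.796). The receptor gene Gpr3 read 3.06, 4.65 and 2.85 on FORKO arrays, against 3.11, 9.47 and 2.42 on WT arrays, with a change of -0.16 (adjusted p = 0.901). These groups overlapped throughout. All of these readings were below the filter level, so a difference in Pde3a or Gpr3 was not detectable here.

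**Figure D3:**
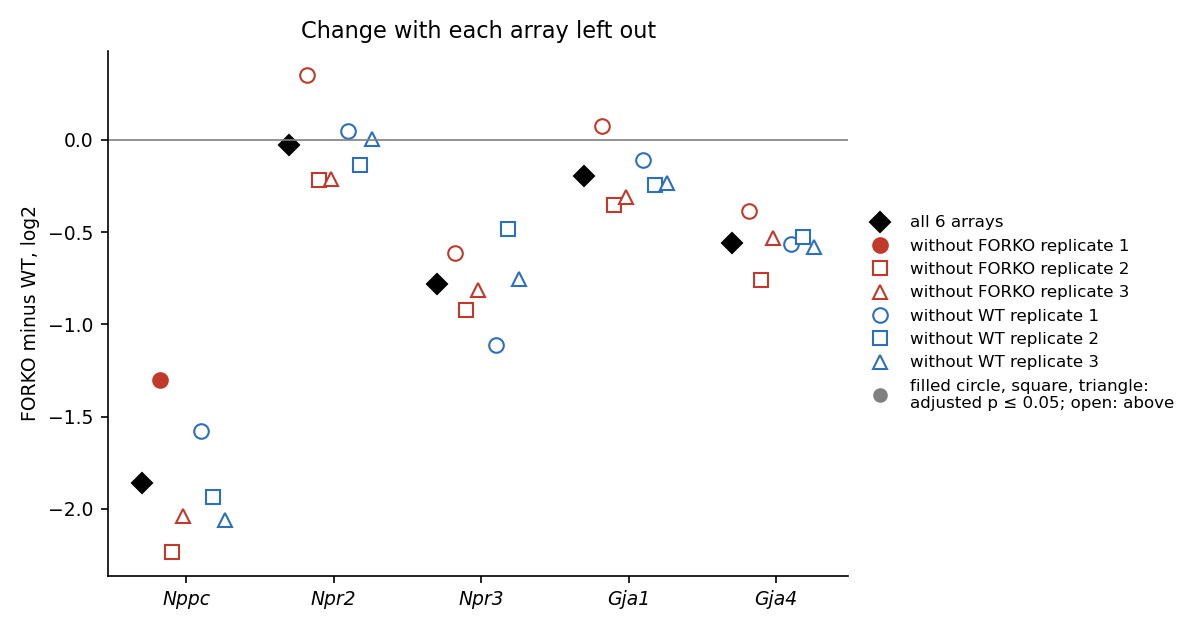
Change in FORKO minus WT ovaries (y axis, log2) of the 5 tested members with all 6 arrays (black diamonds) and with each array left out in turn (red for a FORKO array, blue for a WT array; circles, squares and triangles for replicates 1, 2 and 3). The filled red circle, Nppc without FORKO replicate 1 at -1.30, is the single fit of a member with an adjusted p of 0.05 or less.

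The members' profiles over the 6 arrays were compared by the root mean square difference of log2 signals, each centred on its own mean. Among the 5 tested members, Npr2 and Gja1 were the closest pair, at 0.16, and Gja1 and Gja4 came next at 0.25. Nppc differed from each of the others by 0.81 to 0.97. Both Npr2 and Gja1 had FORKO replicate 1 as their low array and the other FORKO arrays at or above most WT arrays. These distances describe 6 arrays that share their RNA samples, and small distances are easier to reach for genes that vary little.

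The nearest genes outside the set were found among 10888 named genes. For Nppc they were Nr5a2 (0.28), the apolipoprotein gene Apoa4 (0.31) and Elobl (0.32), and all 3 had FORKO replicate 1 as the lowest array and every FORKO array below every WT array. Apoa4 changed by -2.37 and Elobl by -1.60 (limma adjusted p = 0.0155 and 0.0386), and Nr5a2 by -1.87 (adjusted p = 0.0547). For Npr2 the nearest were Pcdhb19 (0.04), Fhod3 (0.08) and Ddhd1 (0.09), and for Gja1 they were Ubash3b (0.07), Ippk (0.07) and Ap3s2 (0.08). For Npr3 they were Star, the cholesterol carrier of steroid synthesis (0.07), the replication factor gene Rfc4 (0.09) and the smooth muscle gene Tagln (0.09), each with WT replicate 2 highest. For Gja4 they were the cytokinesis gene Racgap1 (0.08), the cell cycle factor gene E2f8 (0.08) and Magi3 (0.09). The smooth muscle and pericyte markers, 8 of 8 with a probe set, summed to 1403 to 3238 in FORKO and 2872 to 3421 in WT ovaries. The brightest, Acta2, read 755, 1935 and 2157 in FORKO and 1516 to 1756 in WT ovaries. All 7 tested markers had a negative change, as had 52.6% of all genes. In limma 1 fell, Actg2, against 2.14% of all genes in either direction (5 at an unadjusted p under 0.05, against 16.8%). The median was -0.73, or -0.46 without FORKO replicate 1.

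The rest of the pathway was read from 8 lists, in which 2 of 51 tested genes fell and 0 rose. That is 3.92%, against 2.14% of all genes tested. With spike scaling, and also without FORKO replicate 2, 1 was higher and 1 lower. Of 6 further natriuretic peptide genes, Nppa, Nppb, Npr1 and Corin had probe sets below the filter. The 1 gene tested, the proprotein convertase gene Furin, read 63.1 ± 7.72 in FORKO and 72.7 ± 6.58 in WT ovaries (SD, n = 3 each; limma adjusted p = 0.705). The other natriuretic ligands and the related cyclase receptor Npr1 were thus not bright enough to test.

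Among 12 tested genes of cGMP synthesis, supply, breakdown and effectors, 1 fell and 11 did not pass, with a median change of -0.17. The gene that fell was Pde1a, a calcium- and calmodulin-dependent phosphodiesterase that breaks down cGMP and cAMP. It read 72.1, 95.8 and 82.0 on FORKO arrays, against 160, 271 and 205 on WT arrays, with no overlap. Pde1a fell by 1.27 ± 0.22 on the log2 scale (SE; limma adjusted p = 0.0248). It did not pass without FORKO replicate 3 (0.0779), WT replicate 2 (0.105) or WT replicate 3 (0.0986). The other Pde1a probe set, below the filter, changed by 0.15 in the fit without a filter (limma adjusted p = 0.903).

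Among 11 tested genes on the cAMP side, 1 fell and 10 did not pass, with a median of -0.20. The gene that fell was Pde3b, the paralogue of Pde3a known from adipocytes and other somatic tissues. It read 74.9, 95.0 and 125 on FORKO arrays, against 208, 179 and 222 on WT arrays, again with no overlap. Pde3b fell by 1.03 ± 0.21 on the log2 scale (SE; limma adjusted p = 0.0454). This call passed without FORKO replicate 1 (0.0305), but not with any other array left out (0.0503 to 0.162) or with spike scaling (0.0942). Gpr12, the close relative of Gpr3, was below the filter.

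None of 11 tested genes that control cyclin-dependent kinase 1 passed in limma (2 at an unadjusted p under 0.05, against 16.8% of all genes). Of the 11, 9 had a negative change, as had 52.6% of all genes. The median was -0.29, or -0.11 without FORKO replicate 1. Wee2, the oocyte kinase that keeps cyclin-dependent kinase 1 inactive, read 2.08, 15.3 and 22.3 on FORKO arrays, against 34.3, 36.4 and 45.4 on WT arrays (log2 change -1.41; limma adjusted p = 0.160), and its other probe set changed by -0.70 (adjusted p = 0.291). The groups did not overlap, with a Wee2 mean of 13.2 in FORKO, under the filter level, and of 38.7 in WT ovaries. The oocyte markers given beside Gja4 were lower in the same FORKO samples, and their part in the Wee2 difference was not tested. The phosphatase gene Cdc14b read 237, 150 and 170 in FORKO ovaries, against 63.6, 65.4 and 127 in WT ovaries (1.11; adjusted p = 0.0934). Its second probe set passed, with a change of 0.98 (adjusted p = 0.0497).

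Of 12 further connexin and pannexin genes with a probe set, 10 were below the filter, among them Gja5, Gjb1 and Gjb2. Neither of the others passed (1 at an unadjusted p under 0.05, against 16.8% of all genes). Panx1, a channel protein of the plasma membrane, read 76.3 ± 3.10 in FORKO and 45.4 ± 6.84 in WT ovaries (SD, n = 3 each; log2 change 0.69; limma adjusted p = 0.116). The connexin 45 gene Gjc1 read 188 ± 47.3 in FORKO and 208 ± 14.9 in WT ovaries (log2 change -0.17; adjusted p = 0.785), and its other probe set changed by -0.64 (adjusted p = 0.428). None of 6 junction partners and regulators passed (3 at an unadjusted p under 0.05, against 16.8% of all genes). N-cadherin, Cdh2, read 361, 829 and 653 on FORKO arrays, against 391, 347 and 268 on WT arrays (0.80; adjusted p = 0.231; other probe set 0.96, adjusted p = 0.268), and E-cadherin, Cdh1, read 102, 42.4 and 54.5 on FORKO arrays, against 41.1, 28.4 and 34.8 on WT arrays (0.76; adjusted p = 0.279). Cdh1 was highest in FORKO replicate 1, where the 7 surface epithelium markers also summed highest. They summed to 2160 there, against 1329 and 1437 on the other FORKO arrays and 756 to 836 on WT arrays. In limma 3 of the 7 rose, against 2.14% of all genes in either direction. The 1 with a negative change was Lgr5, at 43.0, 38.0 and 34.5 in FORKO and 56.0 to 65.2 in WT ovaries. The part of the surface epithelium markers in the Cdh1 difference was not tested. Cdh2 rose without FORKO replicate 1 (1.14; limma adjusted p = 0.00606).

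Among LH and EGF-family signals 7 of 9 listed genes had a probe set. None of the 5 tested passed in limma (0 at an unadjusted p under 0.05, against 16.8% of all genes). The EGF-family ligand genes Ereg and Btc were below the filter. The ligand gene Areg and the LH receptor gene Lhcgr had no probe set with exactly 1 gene symbol. The 5 tested genes thus included neither the LH receptor nor any of these ligands. The EGF receptor gene Egfr read 80.7, 220 and 245 on FORKO arrays, against 127, 135 and 138 on WT arrays (log2 change 0.29; limma adjusted p = 0.778), and rose without FORKO replicate 1 (0.78; adjusted p = 0.0322). Its other probe sets past the filter changed by 0.62 and 0.60 (limma adjusted p = 0.392 and 0.328). The phosphatase subunit gene Ppp2ca read 912 ± 100.3 in FORKO and 1074 ± 94.4 in WT ovaries (SD, n = 3 each; adjusted p = 0.520). The list of oocyte signals also held the receptor gene Kit. None of its 3 tested genes, Gdf9, Kit and Bmp6, passed in limma. All 3 had an unadjusted p under 0.05, against 16.8% of all genes, and 1 of them was lower. Bmp6 read 93.9 ± 11.1 in FORKO and 54.9 ± 10.2 in WT ovaries (SD, n = 3 each; log2 change 0.72; limma adjusted p = 0.122). Bmp15 and Fgf8 were below the filter. Gdf9, an oocyte growth factor that acts on cumulus cells, read 48.1, 123 and 126 on FORKO arrays, against 255, 199 and 256 on WT arrays (-1.31; adjusted p = 0.0859), and fell without FORKO replicate 1 (-0.89; adjusted p = 0.0209). Kit, the receptor for Kit ligand on oocytes and other cells, read 115, 39.7 and 74.9 on FORKO arrays, against 21.1, 16.2 and 27.8 on WT arrays (1.49; adjusted p = 0.0685), and rose with the replicate number as a block (adjusted p = 0.0329). Its other probe set, below the filter, changed by 0.45 (limma adjusted p = 0.650). Without FORKO replicate 1, 6 of the 51 pathway genes passed, 3 higher and 3 lower, in the fit where 3.84% of probe sets passed. That share is of probe sets, and the share of genes in this fit was not computed.

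**Figure D4:**
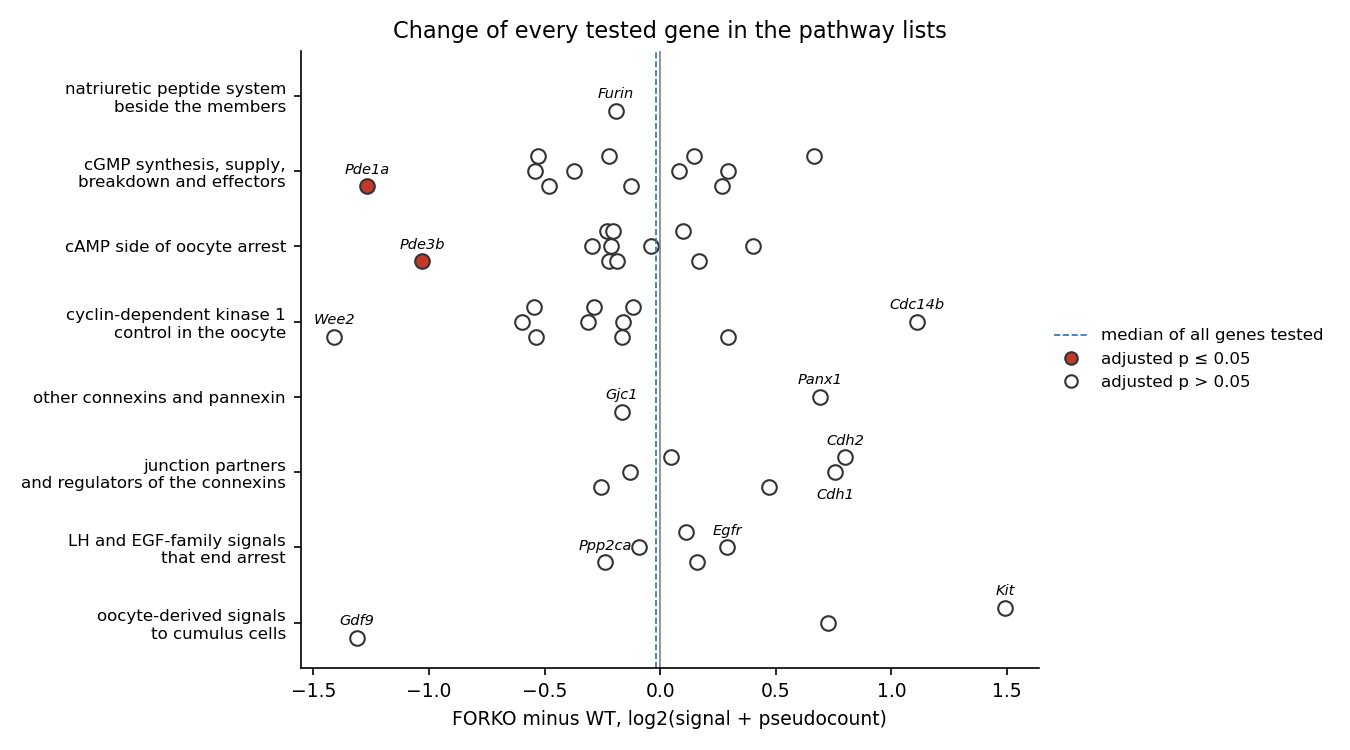
Change in FORKO minus WT ovaries (x axis, log2(signal + 5.73)) of every tested gene in 8 pathway lists (rows), with filled circles for an adjusted p of 0.05 or less, italics for the named genes, and a dashed line at the median of all genes tested, -0.02. Pde1a at -1.27 and Pde3b at -1.03 are the filled circles.

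The cell type markers beside these results were given for the whole tissue. Theca and interstitial markers, 5 of 7 with a probe set, summed to 10799 to 11561 in FORKO and 13726 to 14198 in WT ovaries. None of these 5 passed in limma (3 at an unadjusted p under 0.05, each lower, against 16.8% of all genes). Their changes differed in sign, with 3 negative and those of Cyp17a1 (0.58) and Ptch1 (0.12) positive. Hsd3b1 and Cyp11a1 were the brightest of the list by group mean. Luteal markers, 4 of 6, summed to 88.9, 3726 and 3507 in FORKO and 946 to 1209 in WT ovaries. Sfrp4 made up most of that sum except on FORKO array 1, at 28.9, 3521 and 3295 in FORKO and 581 to 894 in WT ovaries. Ptgfr and Akr1c18 were below every WT array on all FORKO arrays. Parm1 overlapped, at 58.8, 65.5 and 87.8 in FORKO and 44.4 to 194 in WT ovaries. All 4 luteal changes were negative, as were 52.6% of those of all genes, but that of Sfrp4 was near 0 at -0.05. None of the 4 passed in limma (1 at an unadjusted p under 0.05, against 16.8% of all genes). The luteal median was -1.09, or -0.43 without FORKO replicate 1. In that fit 1 luteal marker rose in limma and 0 fell, where 3.84% of all probe sets passed. Stromal markers, 6 of 6, summed to 7280 to 8962 in FORKO and 6909 to 8111 in WT ovaries, and leukocyte markers, 7 of 7, to 1531 to 3699 in FORKO and 1357 to 1848 in WT ovaries. FORKO replicate 1 was lowest of all arrays for granulosa, oocyte, luteal and smooth muscle markers and highest for endothelial, surface epithelium and leukocyte markers. The part of cell composition in the differences of the members was not tested.

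**Figure D5:**
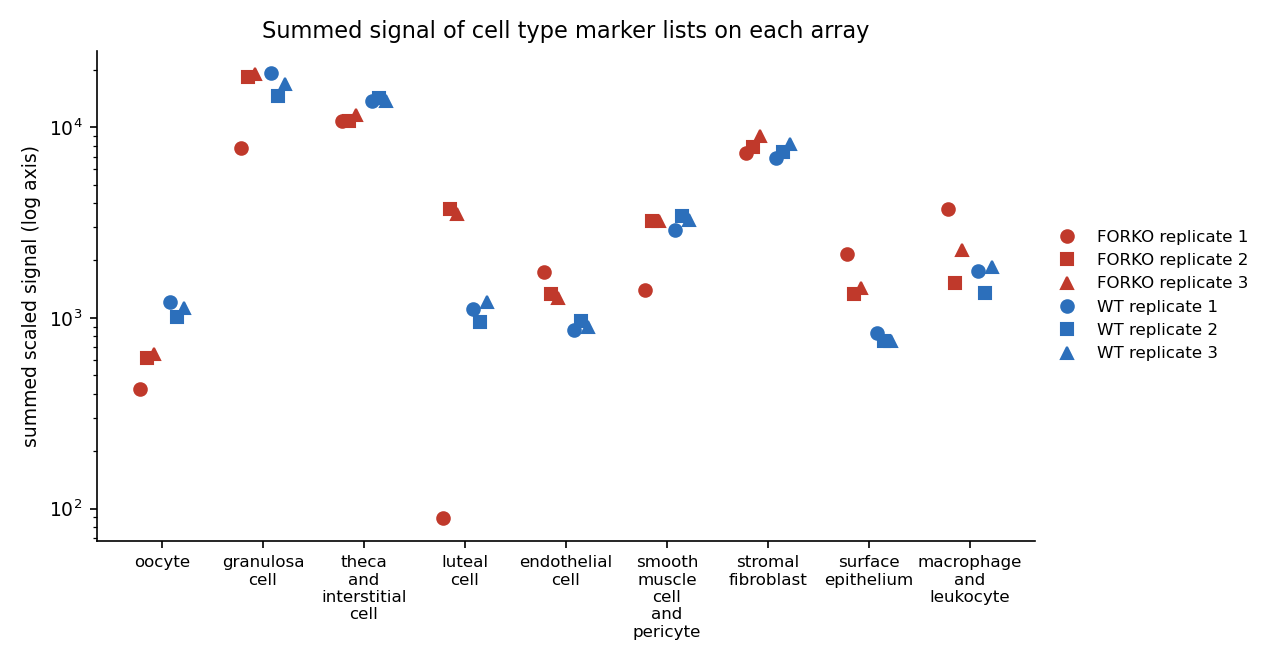
Summed scaled signal (y axis, log scale) of 9 cell type marker lists on 3 FORKO (red) and 3 WT (blue) arrays, with circles, squares and triangles for replicates 1, 2 and 3. FORKO replicate 1 is low for granulosa markers at 7736 and for luteal markers at 88.9, where Sfrp4 carries the high sums of the other FORKO arrays, and the oocyte sums of all 3 FORKO arrays, 424 to 649, lie below those of WT, 1005 to 1203.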

How the data were processed

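The deposited values are MAS5 intensities on a linear scale, 1 per probe set and array, per the submitters' processing notes. Neither a MAS5 version, a scaling target nor detection calls were given in the sources used here. Each array was rescaled to the mean of the 6 trimmed means (2% trimmed at each end), and log2(signal + 5.73) was taken, the pseudocount being the pooled 25th percentile. After removal of 64 control probe sets, the 22506 probe sets with a mean scaled signal at or above 20.4, the median of all means, were tested. The test was limma 3.58.1 under R 4.3.3 (lmFit, then eBayes with trend, two-sided) with Benjamini-Hochberg adjustment over all of them. A member under the filter was read from the fit without it. The fit was tested on simulated data, and figures were drawn with matplotlib 3.10.9.

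The members, the 8 pathway lists, the 9 marker lists and the alternatives were chosen with earlier results of these data known. Named genes were the members and Fshr, then from each pathway list up to 4 that passed, taken by size of change, or the top 2 by size if there were none, and the 3 nearest profiles of each tested member. Foxl2, Amh, Amhr2, Inhba, Kitl, Nr5a2, Sfrp4, Ptgfr, Akr1c18, Parm1 and genes given as below the filter were named after their values were seen. The same holds for Cyp17a1, Ptch1, Hsd3b1, Cyp11a1, Acta2, Actg2, Bmp6 and Lgr5. The labels call the samples biological replicates without giving the number of mice, so a p-value reflects the spread of these samples alone.

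Replicate numbers run from 1 to 3 in FORKO and WT. Arrays with the same number deviated together, with correlations of 0.195, 0.134 and 0.358 between their deviations. Each exceeds 0.1, the level at which numbers were read as pairs. Arrays with different numbers gave -0.215 to 0.0132. The deviations are taken within groups of 3, so these correlations constrain one another, and whether the pairing is real was not tested. This reading rests on the data, because the labels do not state a pairing. The main fit had no block, so p-values leave this possible pairing out except where a block is named. Alternatives covered scaling, pseudocount, filter, variance model, the block, each array left out and the other probe sets.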

Additional observations from a re-analysis of the deposited data

How the results depend on the processing

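With the replicate number as a block 691 probe sets passed, against 372 without the block. Under it no member's call changed, and of the pathway genes Kit changed its call. Among tested members the limma adjusted p moved most for Npr3, from 0.278 to 0.0743. With the block it was 0.101 for Nppc and 0.168 for Gja4. The count of probe sets was 589 with spike scaling, which shifted the all-gene median by 0.17 (log2), 221 without a dim filter, and 62 to 864 with each array left out. Higher calls made up 64.0% of the 372, against 50.6% with the same median per array and 84.0% with spike scaling. The number of members that passed was 0 in each alternative except without FORKO replicate 1, where it was 1 (Nppc, -1.30). The range over the 6 fits without an array was 0 to 1 for members, 0 to 6 for pathway genes, -2.23 to -1.30 for Nppc (-2.62 with pseudocount 1 and -1.28 with 16) and -3.17 to -2.46 for Fshr; Fshr did not pass without WT replicate 1 or 3 (-2.83 and -2.71). Npr2 turned positive with spike scaling (0.14) and ranged from -0.22 to 0.35 without an array; Gja1 ranged there from -0.35 to 0.073, Pde3a from -0.55 to 0.082 and Gpr3 from -0.33 to 0.12. Other probe sets gave a positive change for Npr3 (0.079), Gja1 (0.67) and Pde3a (0.32 and 0.30). Gja4 kept its sign and missed the threshold in all 17 alternatives run. The fits for Pde1a, Pde3b and the pathway genes were chosen after seeing the data. The causes of these changes were not tested. With 3 arrays a group, signals under the dim filter limit what can be said of Pde3a and Gpr3.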
